A study of Mus musculus with 2 samples.

Results

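Ly6c1, Ly6c2, Ly6a and Ly6e, which encode surface proteins of the Ly6 family, and Dapl1, a transcript found mostly in quiescent T cells, were examined in splenic regulatory T cells (Tregs). These 5 genes were taken by symbol from the 32285 features that both libraries list, and all 5 were detected in each library. They had been picked with results of the same libraries in view, so their levels are a description and no test supports the choice. A UMI is a tag that marks 1 captured RNA molecule, and a barcode stands for 1 droplet. Barcodes were used if 300 or more genes were detected in them and if mitochondrial UMIs made up 5% of their total or less, and values were taken within each T cell state.

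The study asked what the zinc finger protein Zfp335 does in Tregs of newborn mice. YFP+ Tregs negative for the viability dye 7AAD were sorted from spleens of 7-day-old C57BL/6J mice and profiled with droplet single-cell RNA sequencing, with 1 library for each genotype. The KO mice were Zfp335fl/flFoxp3-Cre, so that Cre, which is driven from the Foxp3 locus and carries the YFP reporter, deletes Zfp335 in cells that have expressed Foxp3. The WT mice were Foxp3-Cre mice per the study's methods, so both groups carry Cre and YFP, and the number of mice pooled in each library is not given in the sources used here. WT and KO Tregs came from separate mice, so what the deletion does within a cell and what the surrounding tissue of a KO mouse does cannot be told apart.

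Ly6 proteins are small, cysteine-rich proteins held on the outer face of the cell membrane by a glycolipid anchor. Ly6c1 and Ly6c2 are neighbouring copies that together encode the Ly6C antigen, used to mark subsets of monocytes, neutrophils and T cells. Ly6a encodes Sca-1, known as a marker of blood stem cells and as an antigen that T cells gain on activation and under interferon. Ly6e encodes a widely expressed family member that also belongs to the interferon response. Dapl1 encodes a small intracellular protein related to death-associated protein and is known in T cells mainly from transcript lists of naive and quiescent cells.

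The Ly6 genes lie together, which bears on how their reads can be told apart. In the GRCm38 annotation (GENCODE M21), Ly6e (ENSMUSG00000022587) is at chr15:74955051-74959905 on the plus strand, and Ly6a (ENSMUSG00000075602) is at chr15:74994877-74998031 on the minus strand. Ly6c1 (ENSMUSG00000079018) is at chr15:75044018-75048830 and Ly6c2 (ENSMUSG00000022584) at chr15:75108158-75111970, both on the minus strand and 59.3 kb apart. The 4 genes span 156.9 kb, with Ly6i as the 1 other protein-coding gene between them. Dapl1 (ENSMUSG00000026989) is on another chromosome, at chr2:59484653-59505020 on the plus strand. All 5 are protein coding and none overlaps another annotated gene. The 844-base transcript Ly6c1-201 and the 822-base transcript Ly6c2-201 were identical at 97.6% of 822 aligned positions. Of 411 windows of 90 bases in the last 500 bases of each, 35 (8.52%) were also present in the other gene, and of 451 windows of 50 bases 90 were. Reads from such windows cannot be assigned to 1 of the 2 genes, so the split between Ly6c1 and Ly6c2 is uncertain by an amount that was not measured.

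The 250 bases before the transcript start are shown for the 3 genes that RefSeq's promoter table holds, because Ly6c1 and Ly6c2 are copies whose levels followed different states, and Dapl1 shared its main state with Ly6c1. They are Ly6c1 at chr15:75048838-75049087 (minus strand), Ly6c2 at chr15:75111972-75112221 (minus strand) and Dapl1 at chr2:59484403-59484652 (plus strand), all GRCm38.p6 and printed 5′ to 3′ on the gene's strand. Capitals mark TATAAA, and in Ly6c1 and Ly6c2 also the longest run that both share.
Ly6c1: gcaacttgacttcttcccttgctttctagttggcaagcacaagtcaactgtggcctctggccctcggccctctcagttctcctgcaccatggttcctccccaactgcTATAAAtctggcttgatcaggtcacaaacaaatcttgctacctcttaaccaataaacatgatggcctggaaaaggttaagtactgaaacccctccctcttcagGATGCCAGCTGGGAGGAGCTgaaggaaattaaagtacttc
Ly6c2: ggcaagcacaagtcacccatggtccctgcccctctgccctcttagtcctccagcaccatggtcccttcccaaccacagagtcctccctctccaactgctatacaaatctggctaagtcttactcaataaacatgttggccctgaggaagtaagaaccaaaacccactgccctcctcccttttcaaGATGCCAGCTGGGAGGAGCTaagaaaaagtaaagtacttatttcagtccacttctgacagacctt
Dapl1: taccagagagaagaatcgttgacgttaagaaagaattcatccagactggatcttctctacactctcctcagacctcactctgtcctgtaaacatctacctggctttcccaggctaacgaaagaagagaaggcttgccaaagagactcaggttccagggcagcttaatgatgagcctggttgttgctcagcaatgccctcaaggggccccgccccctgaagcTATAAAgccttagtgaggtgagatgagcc
The 20-base shared run, GATGCCAGCTGGGAGGAGCT, was 40 to 21 bases before the start of Ly6c1 and 65 to 46 bases before that of Ly6c2. Over 216 aligned positions the 2 upstream stretches were 75.9% identical, less than the transcripts. TATAAA stood 143 to 138 bases before the start of Ly6c1 and 29 to 24 bases before that of Dapl1, and it was found in 12.4% of 32851 promoters of the same length. The letters TTCNNNGAA, which read the same on both strands and occur in 7.02% of those promoters, were in none of the 3 windows. The core of the interferon-stimulated response element, spelled as GAAA, any 2 bases and GAAA, was searched on both strands. It was present in 2.98% of promoters and in none of the 3 windows.

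The WT library kept 8053 of 14524 barcodes with a median of 5061 UMIs, and the KO library kept 13767 of 18134 barcodes with a median of 2713. Zfp335, the deleted gene, was at 8.18 CPM over WT T-lineage barcodes and 0.784 CPM over KO T-lineage barcodes, a KO to WT ratio of 0.0958 (0.0677 to 0.132). CPM is the number of UMIs of a gene per 1000000 UMIs of the same barcodes. Here and below each bracket gives a 95% interval that covers counting error only, because with 1 library per genotype there are no replicates and no test between genotypes could be made. T-lineage clusters held 7504 WT and 12915 KO barcodes. Resting Treg-like barcodes, named from markers such as Ccr7 and Lef1, numbered 2774 in WT and 5297 in KO. Effector Treg-like barcodes, named from markers such as Klrg1 and Cxcr3, numbered 2049 in WT and 96 in KO. The resting class joined 3 clusters in different proportions. In WT 75.2% of them fell in cluster 1, 20.9% in cluster 3 and 3.86% in cluster 8, and in KO the proportions were 38.5%, 42.6% and 18.9%. Cluster 8 was led by the interferon genes Ifit3, Ifit1 and Iigp1. Another 7 T-lineage clusters, with 17.4% of WT and 41.7% of KO barcodes, were left unnamed, and 5 of them (2, 6, 9, 13 and 21) were shallow and led by RNA of red cells, granulocytes or macrophages. Markers of the sorted cells were present in resting barcodes, where Foxp3 was at 66.1 CPM in WT and 61.8 in KO and Cd4 at 173 and 139, whereas Cd8a was at 0.630 and 0.705 and Cd8b1 at 7.92 and 11.9. The S phase-like class held different cells in the 2 libraries. When clustered at a Leiden resolution of 1.2, 68.8% of its 586 WT barcodes fell in a cycling cluster named effector from its markers, against 1.66% of its 782 KO barcodes, and 30.5% and 98.2% fell in a cluster named S phase. The 14 effector markers summed to 5098 CPM in WT and 1551 CPM in KO over the class, and to 1406 and 1275 CPM over the S phase cluster at 1.2. S phase values are therefore given both ways. Mitotic-like barcodes had 3403 CPM of those markers in WT and 1759 CPM in KO. The libraries shared 70 barcode sequences, 29 of them among kept barcodes, and these were left in.

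The 5 genes divided by the state in which their level was highest. In WT, Dapl1 was 8.67-fold (7.35 to 10.3) and Ly6c1 3.53-fold (3.03 to 4.13) higher in resting than in effector Treg-like barcodes. Ly6a was the reverse, at 234 CPM in effector and 47.9 CPM in resting barcodes, 4.89-fold (4.47 to 5.36) higher in effector barcodes. Ly6c2 was likewise 2.22-fold (1.83 to 2.71) higher in effector barcodes, and Ly6e differed little, at 1.18-fold (1.15 to 1.21). For orientation, 14.3% of 9421 genes were at least 1.5-fold higher in resting and 12.3% at least 1.5-fold lower. In KO the order was the same for Dapl1 (6.02-fold higher in resting, 3.16 to 13.2), Ly6c1 (4.51-fold higher, 2.73 to 8.08), Ly6a (5.07-fold higher in effector, 4.60 to 5.59) and Ly6c2 (3.60-fold higher in effector, 2.71 to 4.71). Ly6e was level between the KO states, at 0.998 (0.924 to 1.08). The KO effector values rest on 96 barcodes.

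**Figure D1:**
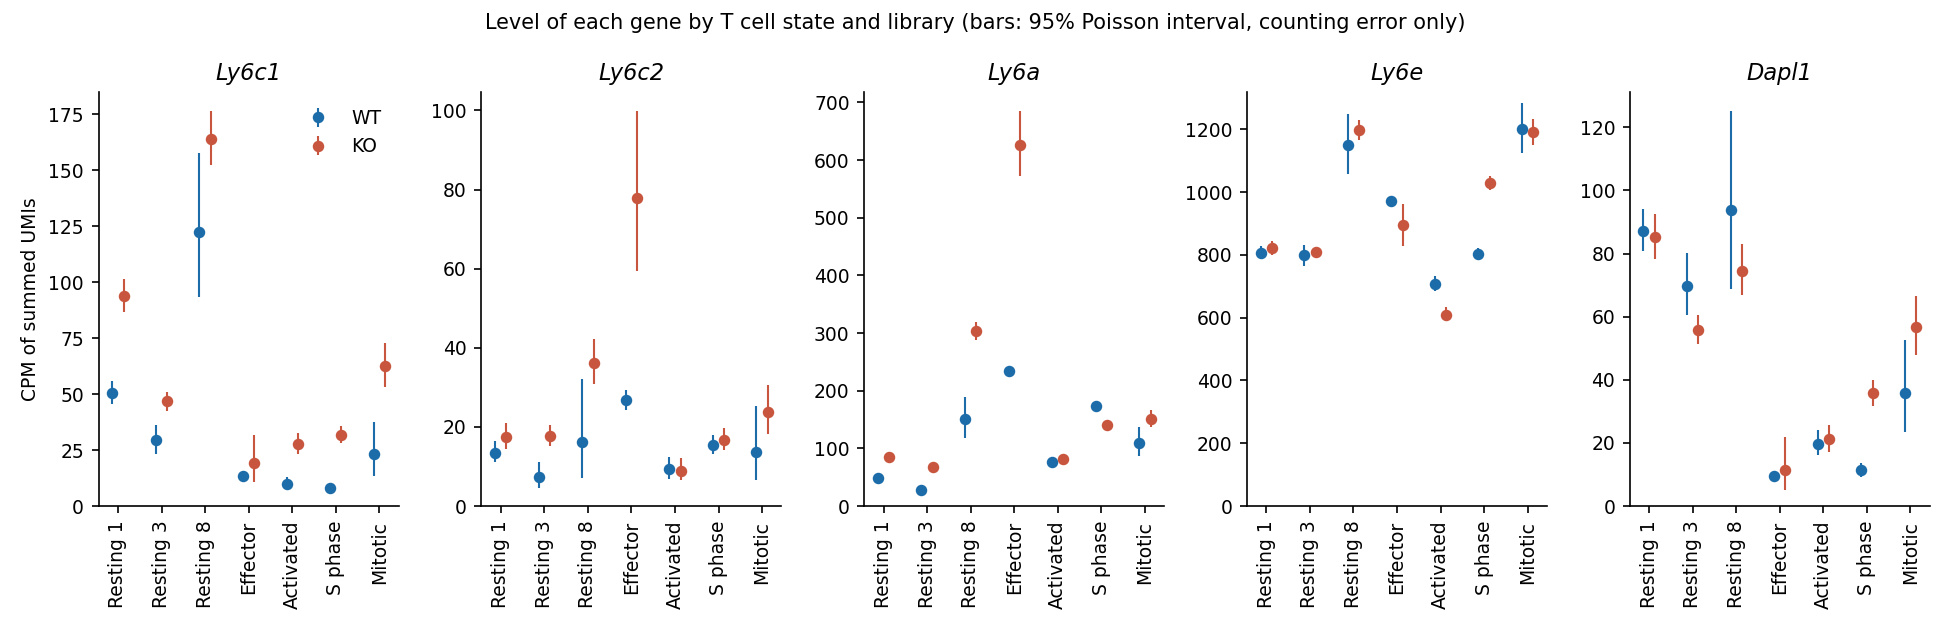
Level of each gene in CPM of summed UMIs (vertical axes, from 0) in the resting clusters 1, 3 and 8 and in effector, activated, S phase and mitotic Treg-like barcodes, with WT in blue and KO in red and bars for exact 95% Poisson intervals. Dapl1 is highest in the resting clusters 1 and 8, Ly6a is highest in effector barcodes at 234 CPM in WT and 627 CPM in KO, and Ly6e lies above 600 CPM throughout.

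Ly6c1, a gene of the Ly6C antigen, was higher in KO in nearly every state. In resting Treg-like barcodes it was at 48.2 CPM (44.2 to 52.4) in WT and 86.3 CPM (82.4 to 90.4) in KO, a ratio of 1.79 (1.63 to 1.98). The ratio was above 1 within each resting cluster, at 1.86 (1.64 to 2.12) in cluster 1, 1.59 (1.26 to 2.04) in cluster 3 and 1.34 (1.03 to 1.77) in cluster 8. So the higher level in KO was not limited to the interferon-led cluster, although that cluster had the highest Ly6c1 level in both libraries (122 CPM in WT, 164 CPM in KO). S phase-like barcodes had 8.16 CPM in WT and 31.8 CPM in KO, a ratio of 3.90 (3.03 to 5.07), but in the S phase cluster at resolution 1.2, without the effector-type WT barcodes, the levels were 20 and 32.7 CPM and the ratio was 1.64 (1.17 to 2.35). Mitotic-like barcodes had 23.4 and 62.4 CPM, a ratio of 2.66 (1.61 to 4.68). Activated Treg-like barcodes had 9.69 CPM in WT and 27.6 CPM in KO, a ratio of 2.85 (2.03 to 4.07). Erythroid-like barcodes, taken below as background, had 2.60 CPM in WT and 19.1 CPM in KO, and the part of such background in these ratios was not tested. In effector barcodes the 13.6 CPM of WT and 19.1 CPM of KO, the latter from 15 UMIs, could not be separated at this depth (1.40, 0.773 to 2.36). In WT the Ly6c1 level stepped down from cluster 8 to cluster 1 and from there to cluster 3 with intervals apart, whereas cluster 3 and mitotic-like barcodes overlapped. In KO mitotic-like barcodes stood between clusters 1 and 3, and all 3 steps from cluster 8 down to cluster 3 were apart.

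Ly6c2, the other gene of the Ly6C antigen, followed the T cell states differently from its copy. Most of its UMIs lay outside the T lineage: only 27.6% of the WT and 35.7% of the KO Ly6c2 UMIs were in T-lineage barcodes, against at least 97.8% of those of Ly6c1. Neutrophil-like barcodes had 841 CPM in WT and 1079 CPM in KO, in WT 69.7-fold the resting level. In resting Treg-like barcodes Ly6c2 was at 12.1 CPM (10.1 to 14.3) in WT and 21.6 CPM (19.7 to 23.6) in KO, a ratio of 1.79 (1.47 to 2.19). Free RNA from granulocytes is present in these barcodes: at the ratio of Ly6c2 to 3 granule genes seen in neutrophil-like cluster 16, 45.7% of the WT and 19.9% of the KO resting Ly6c2 UMIs would come with the granule RNA measured there. That ratio does not carry over to every cluster. In unnamed cluster 13 it gave 268% of the 4 WT and 155% of the 273 KO Ly6c2 UMIs, so the resting percentages are rough. The 9-gene neutrophil list summed to 382 CPM in WT and 250 CPM in KO resting barcodes with no gene at 0. The monocyte list of 6 genes summed to 38.0 and 38.8 CPM, and the erythroid list of 9 genes to 543 and 1112 CPM. The part of this RNA in the Ly6c2 difference was not tested. By cluster the ratio was 1.30 (0.987 to 1.70) in cluster 1, 2.42 (1.53 to 4.00) in cluster 3 and 2.22 (1.10 to 5.22) in cluster 8, the last with 8 WT UMIs. In effector barcodes Ly6c2 was at 26.7 CPM in WT and 77.8 CPM in KO, a ratio of 2.91 (2.19 to 3.80). It was not separable in activated (0.969, 0.621 to 1.51), S phase-like (1.09, 0.862 to 1.38) or mitotic-like barcodes (1.73, 0.881 to 3.78), states in which the Ly6c1 ratios lay between 2.66 and 3.90. In the S phase cluster at resolution 1.2 the ratio was 1.18 (0.744 to 1.97) for Ly6c2 and 1.64 (1.17 to 2.35) for Ly6c1, with intervals that overlapped. The intervals of the 2 genes also overlapped in mitotic-like barcodes, where that of Ly6c1 was 1.61 to 4.68. In activated barcodes they were apart, with 2.03 to 4.07 for Ly6c1.

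Ly6a, the gene of Sca-1, had the largest KO to WT ratio of the 5 genes in resting Treg-like barcodes. Its level there was 47.9 CPM (43.9 to 52.1) in WT and 124 CPM (119 to 128) in KO, a ratio of 2.58 (2.35 to 2.84). Cluster 1 had 48.5 CPM in WT and 85.8 CPM in KO (1.77, 1.55 to 2.02), cluster 3 had 28.6 and 68.6 CPM (2.40, 1.90 to 3.05), and the interferon-led cluster 8 had 151 and 303 CPM (2.01, 1.59 to 2.57). Within either library, then, cluster 8 stood above cluster 1, by 3.11-fold (2.39 to 4.00) in WT and 3.53-fold (3.20 to 3.90) in KO. Because cluster 8 takes a larger share of the KO resting barcodes, the resting ratio was larger than in cluster 1 alone: with the 3 clusters weighted as in WT it was 1.90, and without cluster 8 it was 1.75. In effector barcodes Ly6a was at 234 CPM (227 to 241) in WT and 627 CPM (573 to 685) in KO, a ratio of 2.68 (2.43 to 2.94). Both effector clusters showed it, at 2.43 (2.13 to 2.77) in cluster 4 and 3.01 (2.62 to 3.44) in cluster 11, the latter with 26 KO barcodes. The 96 KO effector barcodes also held more RNA of natural killer cells, which express Ly6 proteins: the 3 markers Ncr1, Klrb1c and Klre1 summed to 98.2 CPM in KO against 3.38 CPM in WT effector barcodes, and none was at 0 in either library. Their part in the Ly6a and Ly6c2 values of KO effector barcodes was not tested. Mitotic-like barcodes had 110 CPM in WT and 151 CPM in KO (1.37, 1.08 to 1.77), and activated barcodes had 75.7 and 81.4 CPM (1.08, 0.929 to 1.24). S phase-like barcodes had 173 CPM in WT and 140 CPM in KO (0.809, 0.751 to 0.872). That direction turned in the S phase cluster at resolution 1.2, with 46.9 CPM in WT and 107 CPM in KO (2.28, 1.84 to 2.85).

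Ly6e, the widely expressed family member, was present in most barcodes and differed little between genotypes. In resting Treg-like barcodes it was at 820 CPM (803 to 837) in WT and 895 CPM (883 to 908) in KO, a ratio of 1.09 (1.07 to 1.12). Within the resting clusters the ratios were 1.02 (0.983 to 1.06), 1.01 (0.967 to 1.06) and 1.04 (0.954 to 1.14) for clusters 1, 3 and 8, so the resting difference went with the larger share of cluster 8 in KO. That cluster had 1.43-fold (1.31 to 1.55) the level of cluster 1 in WT and 1.46-fold (1.40 to 1.51) in KO. S phase-like barcodes differed more, with 802 CPM in WT and 1028 CPM in KO (1.28, 1.24 to 1.32), or 896 and 1031 CPM in the S phase cluster at resolution 1.2 (1.15, 1.09 to 1.21), whereas mitotic-like barcodes had 1201 and 1190 CPM (0.991, 0.919 to 1.07). Activated barcodes had less in KO, with 708 CPM in WT and 610 CPM in KO (0.862, 0.820 to 0.906), and effector barcodes had 970 and 894 CPM (0.921, 0.853 to 0.993). Outside the T lineage, B cell-like barcodes had 1474 CPM in WT and 1480 CPM in KO.

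Dapl1, the quiescence-associated transcript, was the 1 gene of the set with a lower level in KO resting Treg-like barcodes. It was at 83.0 CPM (77.7 to 88.5) in WT and 69.0 CPM (65.5 to 72.6) in KO, a ratio of 0.832 (0.765 to 0.904). Cluster 3 had 69.8 CPM in WT and 55.8 CPM in KO (0.80, 0.680 to 0.945), and cluster 1 had 87.2 and 85.2 CPM (0.977, 0.873 to 1.09). In cluster 8 the levels were 93.8 and 74.6 CPM (0.795, 0.583 to 1.11), a ratio like that of cluster 3 which 46 WT UMIs do not separate from 1. With the 3 clusters weighted as in WT the resting ratio was 0.930, so part of it went with the mix of clusters. In S phase-like barcodes Dapl1 was at 11.3 CPM in WT and 35.7 CPM in KO, a ratio of 3.16 (2.53 to 3.96). In the S phase cluster at resolution 1.2 it was at 38.4 and 36.6 CPM (0.953, 0.74 to 1.24), so the difference was present only with the effector-type WT barcodes included. Mitotic-like barcodes had 35.8 and 56.7 CPM (1.58, 1.04 to 2.50). Activated (1.07, 0.801 to 1.43) and effector barcodes (1.2, 0.539 to 2.33) did not separate the genotypes.

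**Figure D2:**
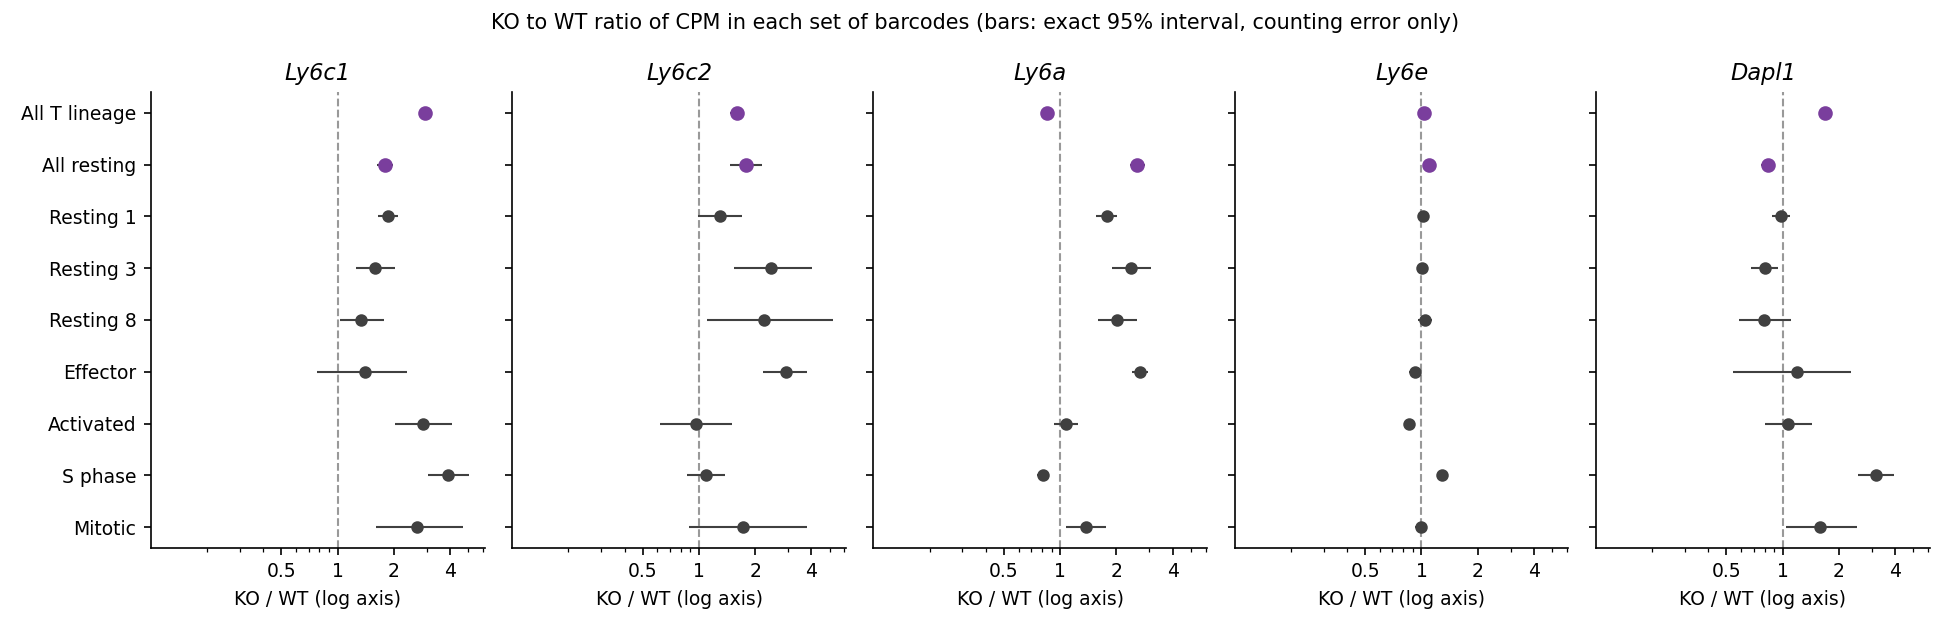
KO to WT ratio of CPM (horizontal log axes) of each gene over all T-lineage barcodes and all resting Treg-like barcodes (purple) and in each state (grey), with exact 95% intervals for counting error as bars and a dashed line at a ratio of 1. S phase is the class before the split at a higher resolution. Ly6c1 lies to the right of the line in every row, Ly6a lies left of it over all T-lineage barcodes (0.846) and right of it in resting (2.58) and effector barcodes (2.68), and Ly6e stays between 0.862 and 1.28.

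Among the 9 T-lineage clusters that are named or not led by RNA of other blood cells or stress genes, the order of levels was partly the same in both libraries. Ly6a was highest in cluster 11, then in cluster 4, with intervals apart (261 and 217 CPM in WT, 784 and 528 CPM in KO), and lowest in cluster 3 (28.6 and 68.6 CPM). Cluster 8 was next after the effector clusters in KO, whereas in WT S phase-like barcodes came before it and their intervals overlapped. Ly6c2 was highest in cluster 4, at 31.3 CPM in WT and 121 CPM in KO, apart from the next, and most of its lower neighbours overlapped. Ly6e was highest in cluster 8 and in mitotic-like barcodes, which overlapped in both libraries, and lowest in the unnamed cluster 10 in WT (620 CPM) and in activated barcodes in KO (610 CPM). Dapl1 was highest in clusters 8 and 1, which overlapped in both libraries, and lowest in cluster 11 (6.95 and 6.56 CPM).

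Over all T-lineage barcodes, in which the libraries hold the states in different proportions, several of the genes gave another picture. Ly6c1 was at 20 CPM in WT and 58.9 CPM in KO, a ratio of 2.94 (2.74 to 3.17). Dapl1 was at 29.2 and 49.2 CPM (1.68, 1.58 to 1.80), although it was lower in KO resting barcodes. Ly6a was at 148 CPM in WT and 125 CPM in KO (0.846, 0.818 to 0.875), although it was higher in KO in resting and effector barcodes alike. Of the WT T-lineage UMIs of Ly6a 57.8% were in effector barcodes, against 7.50% in KO. When the KO level of each of the 13 clusters with at least 20 barcodes in both libraries was weighted by the share that cluster has in WT, the ratio became 2.00 for Ly6a, 1.97 for Ly6c1 and 1.19 for Dapl1. The Ly6a value gives WT weight to the KO effector clusters 4 (528 CPM, 70 barcodes) and 11 (784 CPM, 26 barcodes). It therefore leans on few KO barcodes, and these also held RNA of natural killer cells. With WT levels at the KO mix of clusters the ratio was 0.574 for Ly6a, and 1.53 for both Ly6c1 and Dapl1. Ly6e moved under neither, at 1.02 and 1.00. For Ly6c2 the ratio over all T-lineage barcodes was 1.59 (1.47 to 1.73), and it was 1.07 without the unnamed shallow clusters led by RNA of other blood cells. Over the 13 clusters it was 2.16 at the WT mix, and WT levels at the KO mix gave 1.04. In KO, T-lineage barcodes held 3187 CPM of the erythroid list of 9 genes and 835 CPM of the neutrophil list, against 521 and 331 CPM in WT.

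**Figure D3:**
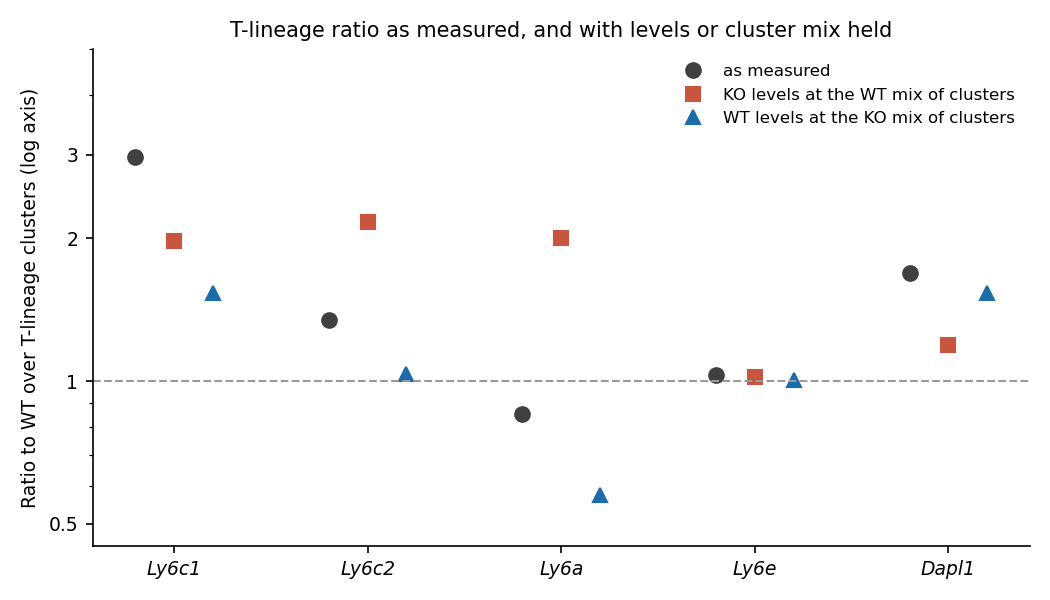
Ratio to WT over the T-lineage clusters that both libraries fill (log axis) as measured (circles), with KO levels at the WT mix of clusters (squares), and with WT levels at the KO mix (triangles), with a dashed line at 1. For Ly6a the measured ratio of 0.850 lies between 2.00 for levels and 0.574 for mix, and for Dapl1 the mix alone gives 1.53 of the measured 1.69. The 2.00 leans on 96 KO effector barcodes.

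Across these single clusters, with no joining into classes, the interval of the KO to WT ratio lay above 1 in 9 of 13 T-lineage clusters for Ly6c1 and below 1 in none. For Ly6a it lay above 1 in 7 and below 1 in 2 clusters, and for Ly6c2 above 1 in 5 and below 1 in none. Ly6e was above 1 in 2 and below 1 in 2 clusters, and Dapl1 above 1 in 4 and below 1 in 1. Ly6c1 thus had the most uniform direction of the 5 genes over clusters.

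Set among all genes with at least 100 UMIs in resting Treg-like barcodes, 3 of the 5 genes (Ly6c1, Ly6c2 and Ly6a) were at least 1.5-fold higher in KO and none was 1.5-fold lower, while 2.21% of 9417 genes were that much higher and 10.2% that much lower. With at least 500 UMIs required, these shares were 1.96% and 5.82% of 5856 genes, and with 1 UMI in each library 6.65% and 22.7% of 14846 genes. Because the genes had been picked from this contrast, nothing is read from that count. By ratio Ly6a was in place 20 of 9417, Ly6c1 in place 81, Ly6c2 in place 82, Ly6e in place 2335 and Dapl1 in place 6379. The median ratio of all genes was 0.935. TMM scaling, which sets that median to 1.04, moved every resting log2 ratio up by 0.16 and made the split 4.47% higher and 5.11% lower. Under it Dapl1 was at 0.929 and Ly6a at 2.88, so neither direction turned. Over all T-lineage barcodes, 3 of the 5 genes (Ly6c1, Ly6c2 and Dapl1) were at least 1.5-fold higher in KO, against 5.08% of 11242 genes higher and 10.9% lower. In effector barcodes Ly6c2 and Ly6a were past 1.5-fold higher, against 8.13% of 8524 genes higher and 13.5% lower.

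**Figure D4:**
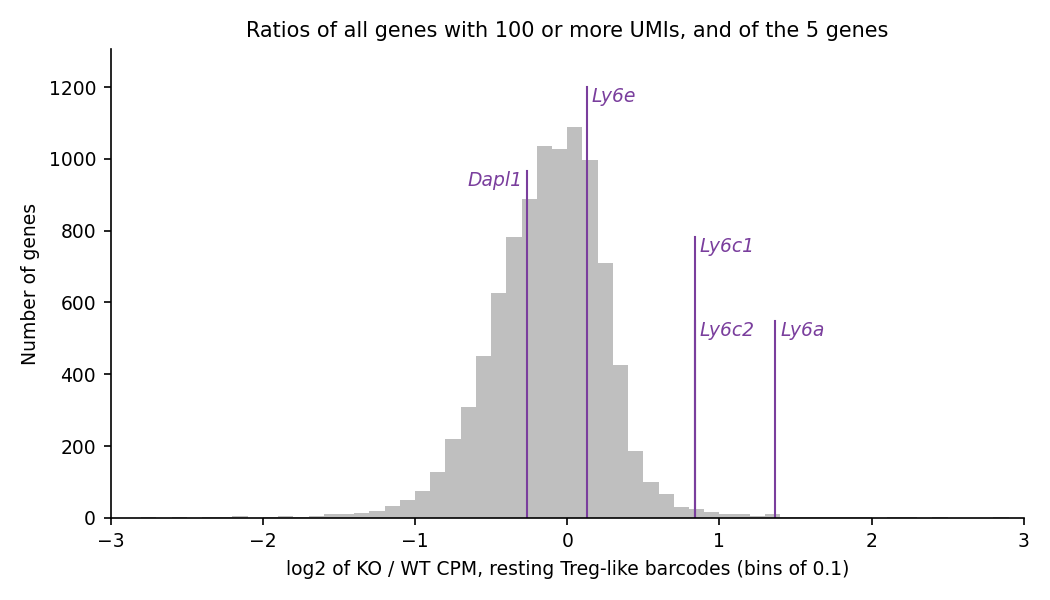
Number of genes (vertical axis) by log2 of the KO to WT ratio of CPM in resting Treg-like barcodes (horizontal axis, bins of 0.1), with vertical purple lines of arbitrary height at the 5 genes. Ly6a (1.37), Ly6c1 (0.84) and Ly6c2 (0.84) lie in the upper tail, and Ly6e (0.13) and Dapl1 (-0.27) lie within the bulk.

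Shares of barcodes were compared once depth had been made equal. After each barcode had been thinned to 1000 UMIs, which left out 100 WT and 149 KO barcodes, 4.41% (3.67 to 5.26) of 2674 WT and 9.81% (9.01 to 10.7) of 5148 KO resting barcodes had a Ly6a UMI. The difference was 5.40 percentage points (4.24 to 6.50). For Ly6c1 the shares were 4.60% and 7.56%, a difference of 2.96 points (1.85 to 4.01), and for Ly6c2 1.38% and 2.10%, a difference of 0.714 points (0.0853 to 1.29). Ly6e was found in 54.3% and 57.1% of barcodes, 2.83 points apart (0.509 to 5.15). Dapl1 was found in 6.02% and 5.71%, and the difference of -0.310 points (-1.45 to 0.763) could not be separated from no difference. Without thinning, the shares with a Ly6a UMI were 13.7% and 24.2%, and those with a Dapl1 UMI 14.4% and 14.2%.

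Erythroid-like barcodes, which lie outside the T lineage, were taken as the background for those shares. Expression by these cells was not told apart from free RNA, and Ly6e was at 272 CPM in WT and 385 CPM in KO there. At the same thinning, 2.07% (0.674 to 4.76) of 242 WT and 7.13% (5.17 to 9.55) of 575 KO erythroid-like barcodes had a Ly6a UMI, from median depths of 3960 and 2120 UMIs. For Ly6c1 the shares were 0 of 242 in WT, which allows up to 1.51%, and 2.78% in KO, and for Dapl1 0 of 242 and 2.61%. The KO erythroid-like barcodes were not free of T cell RNA: the 8 T-lineage markers summed to 2042 CPM there and 1045 CPM in WT, against 7593 and 7539 CPM in resting barcodes. The Ly6a share of resting barcodes was above that of erythroid-like barcodes in each library, but the intervals overlapped in both, and erythroid-like barcodes also had the higher share in KO. The difference in Ly6a share between genotypes was therefore not separated from background by overlap of intervals, which is not a test. By level of summed UMIs, erythroid-like barcodes had 0.325-fold (0.232 to 0.446) the resting Ly6a in WT and 0.278-fold (0.223 to 0.342) in KO. The KO to WT ratio of Ly6a in erythroid-like barcodes was itself 2.21 (1.52 to 3.26). For Ly6c1 and Dapl1 the intervals of resting and erythroid-like barcodes did not overlap in either library. Their levels in erythroid-like barcodes were higher in KO, though. Ly6c1 was at 2.60 CPM in WT and 19.1 CPM in KO (7.34, 3.32 to 19.2), and Dapl1 at 4.08 and 16.1 CPM (3.94, 2.00 to 8.47). The part of such background in the KO to WT ratios of T cell states was not tested. For Ly6c2 the shares in erythroid-like barcodes were 0.826% in WT and 1.39% in KO. Their intervals overlapped those of resting barcodes in both libraries, so the Ly6c2 share was not separated from background by this overlap. Neutrophil-like barcodes had Ly6c2 in 43.1% (WT) and 47.9% (KO), and Ly6a in 4.57% and 3.13%.

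Counted per barcode at full depth, Ly6a, Ly6c1, Ly6c2 and Dapl1 were at 0 in most resting barcodes, with Ly6c2 at 0 in 95.8% of WT and 93.4% of KO barcodes. Low counts alone leave many barcodes at 0, and the share that sampling would give was not calculated. These values therefore do not show a separate subset of cells. Ly6a was at 0 in 86.3% of WT and 75.8% of KO resting barcodes, and 1.08% of WT and 5.27% of KO barcodes had 3 or more UMIs, with a highest count of 13 in WT and 21 in KO. For Ly6c1 the share with 3 or more UMIs was 1.80% in WT and 3.79% in KO, and the highest counts were 11 and 17. Dapl1 differed in the upper end of its counts rather than in how many barcodes had any: 4.36% of WT and 3.19% of KO barcodes had 3 or more UMIs, and 85.6% and 85.8% had none. Ly6e was at 0 in only 14.3% of WT and 12.9% of KO barcodes.

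Ly6a and Ly6e belong by background to the interferon response, so the genes were set beside a list of 24 interferon-induced genes that holds none of them. In resting Treg-like barcodes 20 of the 24 were at least 1.5-fold higher in KO and none was 1.5-fold lower, beside 2.21% of 9417 genes higher and 10.2% lower. The median ratio was 2.33 against 0.935 over all genes. The highest were Ifit3b (5.36) and Cxcl10 (4.87), an antiviral gene and a chemokine, and the lowest was Ifi27l2a (1.32). The list summed to 2578 CPM in WT and 4270 CPM in KO. In cluster 8 alone 5 of 24 were at least 1.5-fold higher (Rtp4, Gbp2, Iigp1, Cxcl10 and Socs1, named after their values were seen), with a median of 1.19, beside 8.01% of 5004 genes higher and 6.49% lower. In cluster 1 it was 15 of 22 with a median of 1.73, beside 1.39% of 8083 genes higher and 8.3% lower, and in cluster 3 it was 15 of 21 with a median of 1.75, beside 3.49% of 7459 genes higher and 4.1% lower.

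Barcodes were then grouped by their number of UMIs of these 24 genes after thinning. In KO a Ly6a UMI was found in 6.19% of barcodes with no interferon-list UMI, 4.06% with 1, 7.16% with 2 to 3, 10.1% with 4 to 7 and 21.7% (18.8 to 24.8) with 8 or more. In WT it was 5.34%, 3.59%, 4.15%, 4.32% and 9.89% (4.62 to 17.9), so that the 2 libraries lay close at 0 and 1 UMI and apart above. The Ly6c1 share with 8 or more such UMIs was 12.7% in KO and 9.89% in WT, against 6.53% and 4.49% with none. Ly6e went from 44.0% to 69.1% in KO and from 52.0% to 67.0% in WT. Dapl1 showed no such slope in KO, at 5.84% with none and 5.30% with 8 or more. Barcodes with 8 or more such UMIs made up 3.40% of WT and 14.7% of KO resting barcodes. With the KO barcodes weighted to the WT shares of these groups, the KO to WT ratio of UMIs per barcode was 1.71 in place of 2.51 for Ly6a, 1.49 in place of 1.81 for Ly6c1, 1.32 in place of 1.61 for Ly6c2, 1.00 in place of 1.08 for Ly6e and 0.885 in place of 0.866 for Dapl1. In KO the interferon list therefore moved with the shares of Ly6a, Ly6c1 and Ly6e. In WT the Ly6a and Ly6c1 shares changed little below 8 list UMIs. At 8 or more they rested on 9 of 91 WT barcodes each, with intervals that overlapped those at 0. At 0 and at 1 UMI, where the list count is equal, the Ly6a intervals of the genotypes overlapped. They were apart at 2 to 3, 4 to 7 and 8 or more, which are ranges in which the list counts of the libraries can still differ. The Ly6c1 intervals overlapped in every group but had the higher value in KO. Ly6c2, in at most 2.91% of barcodes of any group, was too sparse to follow. Whether interferon caused these levels was not tested.

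**Figure D5:**
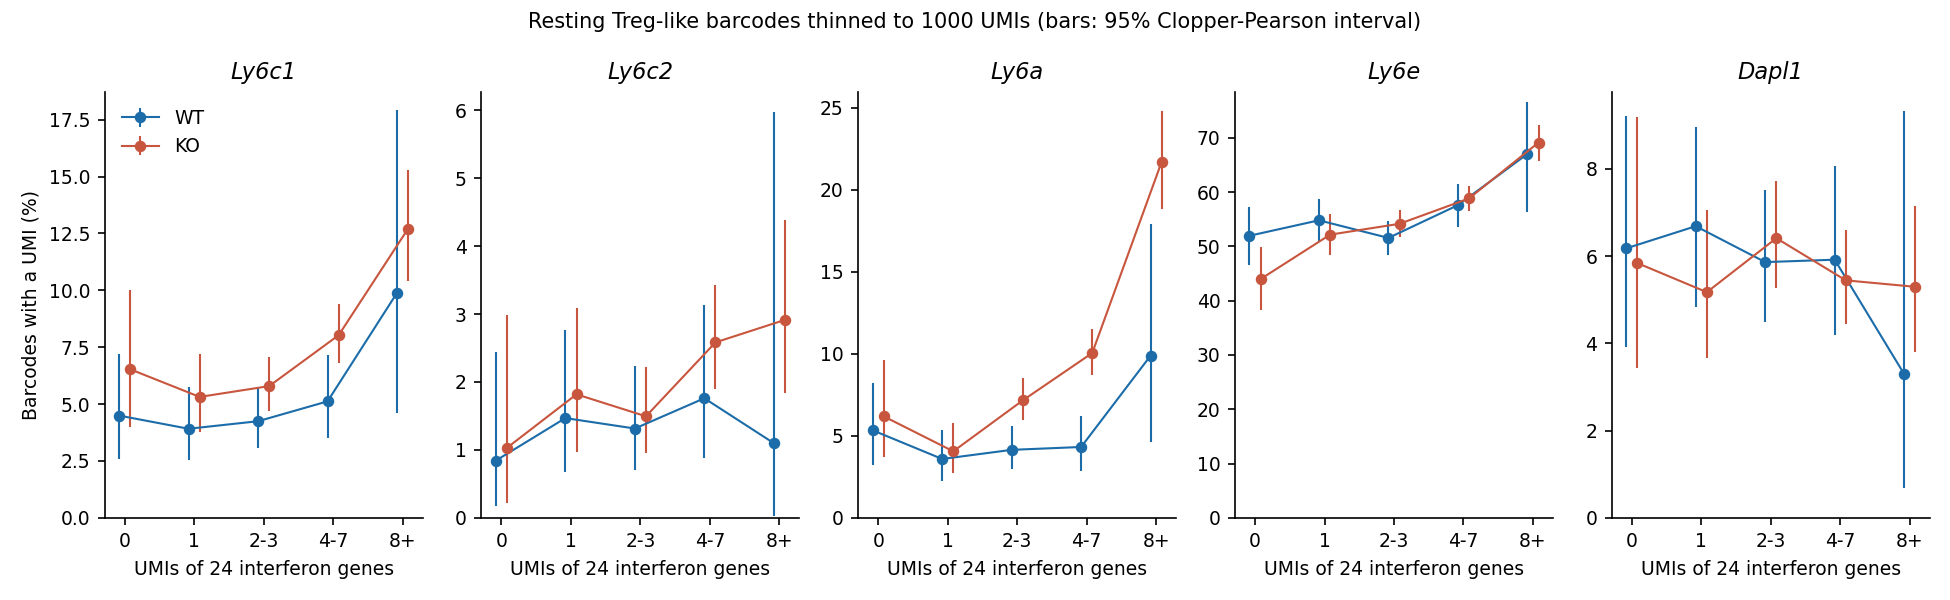
Percentage of resting Treg-like barcodes in which each gene had a UMI (vertical axes) by the number of UMIs of 24 interferon genes in the same barcode (horizontal axes), all thinned to 1000 UMIs, with WT in blue, KO in red and bars for exact 95% Clopper-Pearson intervals. Ly6a reaches 21.7% in KO and 9.89% in WT at 8 or more UMIs, whereas Dapl1 stays between 3.30% and 6.69% in both.

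Dapl1 and Ly6c1 were also set beside a list of 20 genes of quiescent T cells. Several of its genes had been used to name the resting clusters, so their high level there is no finding, but their KO to WT ratio within the class can be given. Only Igfbp4 (2.11), a secreted binding protein of insulin-like growth factors, was at least 1.5-fold higher, and only Cd226 (0.562), an adhesion receptor, at least 1.5-fold lower, with a median of 0.998, beside 2.21% of all genes higher and 10.2% lower. The next in order were Ccr7 (1.41), a homing receptor for lymphoid tissue, and Il7r (0.711), a cytokine receptor chain for survival signals. Grouping the barcodes by UMIs of this list left the ratios of Ly6a (2.46) and Ly6c1 (1.75) close to their plain values of 2.51 and 1.81.

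Whether the same barcodes carried the genes was read from pairs at 1000 UMIs. A Ly6a UMI was found with a Ly6c1 UMI in 16 of 2674 WT resting barcodes, where 5.43 would be found if the 2 were unlinked, and in 85 of 5148 KO barcodes, where 38.2 would be. The odds ratios were 3.59 in WT and 2.89 in KO. Within cluster 1 they were 2.68 in WT and 2.00 in KO and within KO cluster 8 2.69, so the pairing was present inside clusters as well. Ly6c1 and Dapl1 had odds ratios of 2.48 in WT and 1.31 in KO, and Ly6a and Dapl1 of 1.47 and 1.09. Ly6e and Dapl1 were near 1 in both (0.963 and 0.957). Ly6c1 and Ly6c2, which share sequence, had odds ratios of 1.85 in WT and 0.978 in KO, and of 3.49 and 1.45 at 2000 UMIs. These are sparse counts and are given as a description.

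The genes with the profile most like each member were sought over 24 profiles, 12 T-lineage clusters in each library, among 10242 genes by Pearson's r of log2(CPM + 1). The profiles share their library, and the shallow clusters share RNA of other cells, so r is a description. For Ly6c1 the nearest were Ms4a4c (0.913), Evl (0.888) and H2-Q4 (0.882). For Dapl1 they were Ndrg3 (0.907), Igf2r (0.880) and Ampd1 (0.849), and Ly6c1 and Dapl1 had an r of 0.766 with each other. For Ly6a they were the granzyme gene Gzma (0.773), Tpst2 (0.751) and Tapbpl (0.735), and for Ly6e Phf11b (0.823), Polr3gl (0.798) and Leprotl1 (0.785). For Ly6c2 they were Ifitm3 (0.863), Lst1 (0.835) and Fcer1g (0.825), genes of myeloid cells, whereas its r with Ly6c1 was 0.229.

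Of 38 other genes of the Ly6 and urokinase receptor family, 36 were in the files, and 14 of them had no UMI in the T-lineage barcodes of either library. Of the 5 with at least 100 UMIs over T-lineage barcodes, 4 were at least 1.5-fold higher in KO (5.08% of all genes were higher and 10.9% lower), namely Ly6d (1.58), Ly6k (1.97), Plaur (2.63) and Bambi (1.65), and Cd59a (0.335) was lower. Ly6d, Plaur and Cd59a are expressed in B cells, myeloid cells and red cells, and are named here after their values were seen. Only Ly6k and Bambi reached 200 UMIs. Ly6k was at 1.79 CPM (1.44 to 2.21) in WT and 3.54 CPM (3.05 to 4.09) in KO over T-lineage barcodes, and at 3.51 and 4.09 CPM in resting ones. Bambi, a decoy receptor of the TGF-beta family, was at 1.48 CPM (1.16 to 1.87) in WT and 2.45 CPM (2.04 to 2.91) in KO, and at 1.62 and 3.06 CPM in resting barcodes. In resting barcodes Ly6k was the 1 gene of the family list with at least 100 UMIs, and its ratio of 1.17 was below 1.5-fold.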

How the data were processed

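Raw UMI counts of 2 libraries, 1 per genotype, were deposited by the authors as matrices of genes by barcodes. The submitters' processing notes name Cell Ranger 5.0.1 and the mm10 genome. All barcodes in the files were read, and those in which 300 or more genes were detected and 5% or less of the UMIs were mitochondrial were kept (8053 of 14524 in WT and 13767 of 18134 in KO). Kept totals were 54204367 and 57649800 UMIs.

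Counts were scaled to 10000 per barcode, log-transformed and reduced to 2000 variable genes and 30 principal components, and a graph of 20 neighbours was clustered by the Leiden method at resolution 0.8 (scanpy 1.11.5, igraph 0.11.9). Ly6c1, Ly6c2, Ly6a, Ly6e and Dapl1 were left out of the variable genes, but Dapl1 still led clusters 1 and 3 and Ly6c1 cluster 8, so levels by cluster are a description. A cluster was named where T-lineage or other lineage markers were present and where 60% of a state's markers were 1.5-fold raised with 1 among its 10 leading genes, or 80% without one. This naming rule was set after the clusters had been seen. Classes named so are rebuilt here and can differ from those of the study.

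UMIs were summed per library and state and divided by the summed UMIs of the same barcodes. Intervals are exact Poisson (levels), Clopper-Pearson (shares), conditional binomial (ratios) and Newcombe (differences of shares) at 95%, from SciPy 1.17.1. Only the ratio interval was tried on simulated data. The simulated counts were independent Poisson draws, so they do not show how the interval holds where UMIs gather in few barcodes. The limit for a count of 0 among barcodes is the exact one. Reads without a replicate library allow no test between genotypes. Doublets were not removed, and as an alternative the 403 WT and 1101 KO barcodes with the highest Scrublet scores were left out. TMM factors came from edgeR 4.0.16, which was used for scaling only. Gene positions came from GENCODE M21, and promoters from RefSeq, whose table held 3 of the 5 genes. Alternatives changed the filters, the depth, the scaling, the clustering and the mix of states.

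The 5 genes and the gene lists were chosen with earlier results of these data known. Genes named beside the 5 were Zfp335, cluster markers and leading genes, family members with at least 200 UMIs, the 3 most similar profiles for each gene, and the 2 highest and 2 lowest ratios of the interferon and quiescence lists. Among these, 1 interferon gene is not reported here.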

Additional observations from a re-analysis of the deposited data

Results flagged for a closer look

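For 3 of the genes the KO to WT ratio lay on opposite sides of 1 in different states, with both intervals away from 1. The difference between states was not tested, since each genotype has 1 library. Ly6a was at 2.68 in effector and 0.809 in S phase-like barcodes. Ly6e was at 1.28 in S phase-like and 0.862 in activated barcodes. Dapl1 was at 3.16 in S phase-like and 0.832 in resting barcodes. All 3 involve S phase-like barcodes, which held different cells in the libraries: at a Leiden resolution of 1.2, 68.8% of the WT and 1.66% of the KO barcodes fell in a cycling cluster named effector. In the S phase cluster at that resolution Ly6a was at 2.28 and Dapl1 at 0.953, so their opposite directions were not kept, and Ly6e was at 1.15. Median depth over the class was 15098.5 UMIs in WT and 9278 in KO.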

How the results depend on the processing

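Of 176 alternative values for 29 results, 119 stayed within the counting interval, 52 moved outside it on the same side of 1 or 0, and 5 turned to the other side. In S phase-like barcodes at Leiden resolution 1.2, where effector-type WT barcodes form another cluster, Ly6a turned to 2.28 and Dapl1 to 0.953, and Ly6c1 was at 1.64 and Ly6e at 1.15. The other turns were of Ly6a over all T-lineage barcodes, at 1.05 as a mean of single-barcode CPM, 1.10 after thinning to 1000 UMIs and 2.00 at the WT mix of states.

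Ratios over T-lineage barcodes moved as follows. The mean of single-barcode CPM gave 2.44 for Ly6c1, 1.86 for Ly6c2, 1.01 for Ly6e and 1.26 for Dapl1. Thinning gave 2.16 for Ly6c1, 2.31 for Ly6c2 and 1.39 for Dapl1, and the WT mix gave 1.97, 2.16 and 1.19. Ly6c2 was at 1.36 with at least 1000 genes and at 1.07 without clusters 2, 6, 9, 13 and 21, an alternative added after seeing the data. TMM gave 0.893 for Ly6a and 1.09 for Ly6e, and a mitochondrial limit of 10% gave 0.876 for Ly6a.

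In resting barcodes the limit of 10% gave 1.32 for Ly6c1, 1.79 for Ly6a, 1.04 for Ly6e and 0.751 for Dapl1. TMM gave 2.00, 2.88, 1.22 and 0.929. Leiden resolution 0.5 gave 1.48 for Ly6c1, 1.76 for Ly6a and 1.02 for Ly6e, and resolution 1.2 gave 0.731 for Dapl1. Added after seeing the data, leaving out cluster 8 gave 1.46, 1.75 and 1.01 for Ly6c1, Ly6a and Ly6e, and the WT mix of clusters gave 1.90 for Ly6a, 1.02 for Ly6e and 0.930 for Dapl1. The Ly6c2 ratio ranged from 1.49 to 2.00. The resting class did not hold the same barcodes under each clustering. The interferon-led cluster was unnamed, and so left out of the class, at resolution 0.5 (68 WT and 911 KO barcodes) and at the limit of 10% (77 and 1057). These alternatives therefore overlap with leaving out cluster 8. At resolution 1.2 a cluster of 1617 WT and 487 KO barcodes, nearest to the resting markers, was unnamed and left out.

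For resting over effector levels in WT, the limit of 10% gave 7.19 for Dapl1, thinning gave 10.5 for Dapl1 and 0.802 for Ly6e, and the single-barcode mean gave 0.795 and TMM 0.811 for Ly6e. Resolution 1.2 gave 4.98 for Ly6c1, 0.244 for Ly6a, 0.911 for Ly6e and 11.9 for Dapl1. Differences in share were 1.74 points for Ly6c1 and 2.41 for Ly6a at 500 UMIs, and 5.27, 2.41 and 10.5 points for Ly6c1, Ly6c2 and Ly6a without thinning. The share of genes past 1.5-fold was 6.65% higher and 22.7% lower with no UMI filter, and 5.82% lower at 500 UMIs or more. The cause of these movements was not tested. No paired analysis was possible because each genotype has 1 library. With 1 library each, the difference between mice and between captures is not measured, and values from few UMIs (effector barcodes of KO, Ly6c2) are limited by counts.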
